A study of Mus musculus with 6 samples.

Results

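The genes of the proteasome were followed in Neuro2a cells, a mouse neuroblastoma line, cultured with or without D-serine. Members were chosen by symbol alone, as every gene whose name begins with Psm, a letter from a to g and a number, and 50 of the 24391 genes in the table met this rule. Of these, 19 encode the core particle (Psma and Psmb), 20 the regulatory particle and its dedicated chaperones (Psmc and Psmd), 6 encode activators or an inhibitor (Psme and Psmf) and 4 are chaperones of core assembly (Psmg). The remaining gene, Psmc3ip, shares the prefix but encodes a cofactor of meiotic recombination and no proteasome subunit. It is reported as a member by symbol and kept out of the regulatory particle. Both groups were grown in D-MEM with 10% FBS and then moved to a medium named D-MEM(-SG), also with 10% FBS, for 18 hours. The control group (3 libraries) received vehicle and the treated group (3 libraries) 5 mM D-serine. The labels number the libraries within a group but do not say that they came from separate cultures, so p-values measure the spread between these libraries, which may be technical.

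The proteasome degrades proteins that carry ubiquitin chains. Its core particle is a barrel of stacked rings, with alpha subunits that gate the entrance and beta subunits of which some carry the peptide-cutting sites inside. The regulatory particle caps the barrel, where ubiquitin receptors hold the substrate, a deubiquitinase removes the chain and a ring of ATPases unfolds the protein and threads it into the core. Genes for the subunits are known to be induced together by the transcription factor Nfe2l1 when proteasome activity falls, through antioxidant response elements in their promoters. Interferon replaces the catalytic beta subunits by inducible forms, which make up the immunoproteasome.

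Promoter sequences are shown for the 3 proteasome genes that passed the test between the groups (Psma4, Psmc1 and Psme4) and for 2 catalytic subunits that hold an element-like match (Psmb5 and Psmb6). Each is the 200 bases before the annotated start, 5′ to 3′ on the strand of the gene, from RefSeq on GRCm38.p6. The positions are chr9:54950659-54950858 (plus strand) for Psma4, chr12:100110002-100110201 (plus) for Psmc1, chr11:30771575-30771774 (plus) for Psme4, chr14:54617996-54618195 (minus) for Psmb5 and chr11:70525157-70525356 (plus) for Psmb6. Capitals mark TGACNNNGC, the core of an antioxidant response element, or CCAAT, the box bound by NF-Y, each in either orientation.
Psma4: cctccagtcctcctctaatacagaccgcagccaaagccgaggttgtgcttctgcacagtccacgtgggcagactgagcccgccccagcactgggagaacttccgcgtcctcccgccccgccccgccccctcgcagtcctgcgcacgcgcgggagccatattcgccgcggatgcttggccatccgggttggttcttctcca
Psmc1: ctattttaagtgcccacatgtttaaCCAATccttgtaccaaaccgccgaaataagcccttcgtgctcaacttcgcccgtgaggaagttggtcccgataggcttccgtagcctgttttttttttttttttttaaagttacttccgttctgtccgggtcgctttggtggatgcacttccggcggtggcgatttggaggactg
Psme4: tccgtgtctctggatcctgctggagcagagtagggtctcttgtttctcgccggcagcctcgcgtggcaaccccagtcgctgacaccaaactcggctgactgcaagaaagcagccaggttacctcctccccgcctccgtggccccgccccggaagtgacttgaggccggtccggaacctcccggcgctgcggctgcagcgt
Psmb5: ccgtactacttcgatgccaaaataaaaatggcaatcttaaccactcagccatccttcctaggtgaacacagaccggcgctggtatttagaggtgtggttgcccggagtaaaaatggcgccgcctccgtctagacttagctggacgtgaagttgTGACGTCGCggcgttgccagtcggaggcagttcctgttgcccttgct
Psmb6: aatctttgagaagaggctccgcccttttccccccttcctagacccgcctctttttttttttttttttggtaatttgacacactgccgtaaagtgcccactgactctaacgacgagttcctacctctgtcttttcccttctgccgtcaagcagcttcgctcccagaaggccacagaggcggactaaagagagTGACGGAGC
The match in Psmb5 spans bases -47 to -39 from the start and that in Psmb6 bases -9 to -1. Psmc1 holds a CCAAT box at bases -175 to -171, and neither motif lies in the windows shown for Psma4 and Psme4. Over 250 bases before the start and both strands, TGACNNNGC was found in 5 of the 45 promoters of the 42 members that could be matched by symbol (11.1%), against 10.2% of all 32851 promoters in the RefSeq table. The 5 were Psmb5, Psmb6, Psmc6, Psmd9 and Psmd12. CCAAT was found in 15 of 45 (33.3%), against 33.8% of all promoters. Both shares lay near those of all promoters, and the 2 motifs share no stretch that would make a match to one a match to the other. A match is a description of the letters in this window and not a measured binding site.

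The libraries held between 32518483 and 40024265 counts, and the proteasome genes took 0.603% to 0.626% of them in control and 0.619% to 0.668% with D-serine. The common biological coefficient of variation was 5.77%. D-serine replicate 1 stood apart from its fellows, with a chi-square statistic per degree of freedom of 17.7 and 13.9 against them, whereas the other pairs of the same group gave 3.88 to 6.54. Its counts also leaned towards short genes: the slope of its log2 CPM (counts per 1000000 counts of the scaled library) on log2 gene length, relative to the other libraries, was -0.072, against -0.0040 and 0.0058 in its fellows and 0.015 to 0.036 in control. Values without this library, or with each library's length trend removed, are therefore given beside the results in which it stood out. The slopes of all D-serine libraries lay below those of all control libraries. A length trend thus cannot be told apart from the treatment here, and its removal may also remove a difference between the groups. All 10 neuroblastoma and sympathoadrenal markers examined were expressed highly enough to be tested (summed level 1032 to 1059 CPM in control and 1052 to 1098 CPM with D-serine), although Th and Dbh, which encode enzymes of catecholamine synthesis, averaged only 1.96 and 1.56 CPM. Summed markers of fibroblasts, macrophages and blood, and epithelium stayed at or below 2.20 CPM in every library, with Col3a1, Lum and Hbb-b1 at 0. The 5 glial markers summed to 15.6 to 16.8 CPM, of which Mbp gave 13.2 CPM, with Aqp4 at 0.

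Transcript levels were compared between genes per kilobase of exon (CPM per kb). Of the 48 members with enough counts for a test, 47, Psmc3ip included, lay above the median of all genes tested, 9.86 CPM per kb. Some did so only narrowly, as Psmb10 at 10.4 CPM per kb lay above 51.3% of all genes tested. Psma6 (the alpha 1 subunit) was the highest at 327 CPM per kb and Psmb9 the lowest at 2.10 CPM per kb. In the alpha ring, levels ran from 78.1 CPM per kb in Psma5 to 327 in Psma6, a 4.19-fold range that came mainly from Psma6, since the median of the ring was 98.0. The 6 ATPase genes, whose products also form a ring, lay closer together, between 87.9 CPM per kb in Psmc3 and 148 in Psmc4 (1.68-fold). Non-ATPase regulatory genes spread 7.01-fold. The 3 lowest were Psmd10, Psmd9 and Psmd5, at 21.6, 27.1 and 29.5 CPM per kb, which encode assembly chaperones of the base that leave the finished particle. The highest was Psmd14, the deubiquitinase of the lid, at 151 CPM per kb, with Psmd2, Psmd7 and Psmd4 next at 149, 147 and 146. These neighbours were too close to be ordered, as their libraries interleave in the plot of levels per kilobase. The assembly chaperones of the core, Psmg1 to Psmg4, lay between 24.3 and 69.7 CPM per kb.

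**Figure D1:**
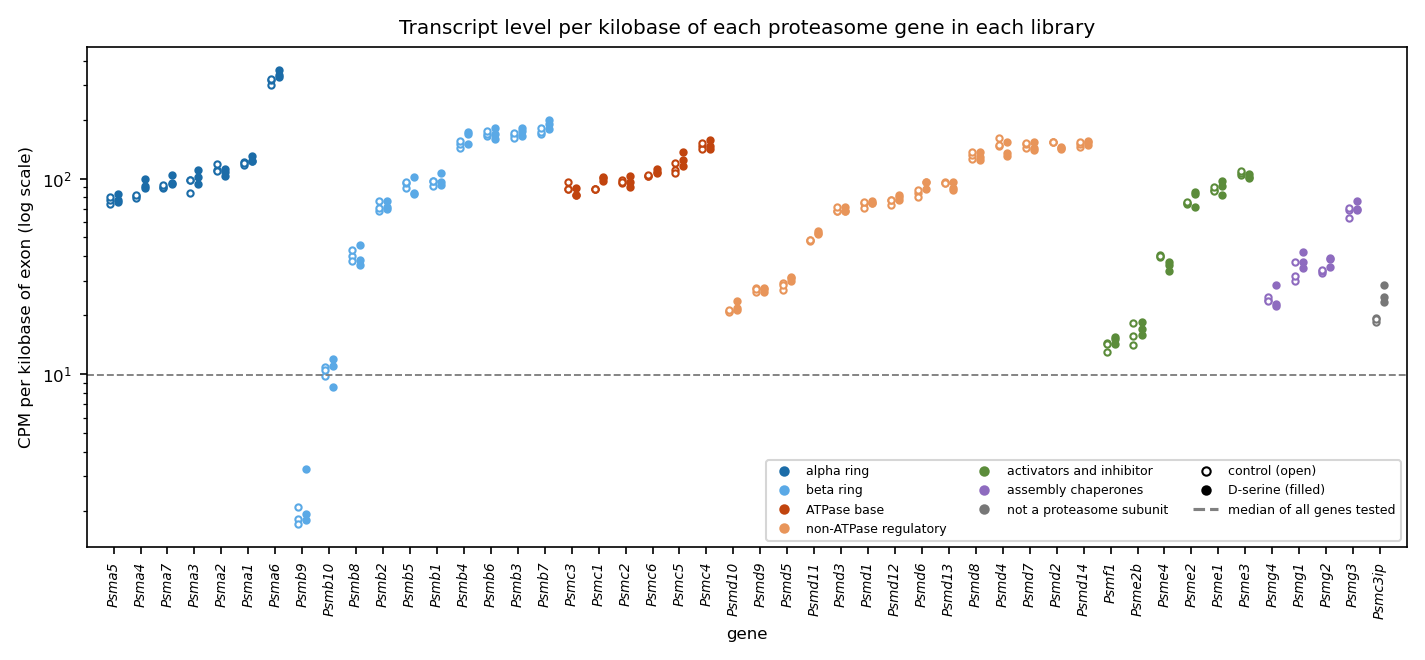
Level of each of the 48 tested proteasome genes in each library, in CPM per kilobase of exon on a log axis, grouped by sub-complex; open circles are control and filled circles D-serine libraries (n = 3 each), and the dashed line is the median of all genes tested (9.86). Psma6 stands above the other alpha genes at 327, and Psmb9 is the only gene with a mean below the line, at 2.10.

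The remaining 2 members were not tested. Psma8, the testis form of alpha 4, had no count in any of the 6 libraries, which allows a level of up to 0.0135 CPM (3 counts over all libraries, counting error only). Psmb11, the thymus form of beta 5, had 12 counts over the 6 libraries. Psme2b is a near copy of Psme2, the beta subunit of the activator PA28, so reads may have been split between them. It also shares 261 exonic bases (24.6% of its exons) with 9930111J21Rik1 on the same strand, and its 16.5 CPM per kb is uncertain.

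The inducible catalytic subunits were weaker than their constitutive partners in every library. At the chymotrypsin-like site, Psmb8 averaged 40.2 CPM per kb and Psmb5 91.6, and the ratio of the 2 lay between 0.401 and 0.453 over the 6 libraries. Psmb5 shares 109 exonic bases (12.5% of its exons) with Mir686 on the same strand, so its level is less certain. For the trypsin-like site the ratio of Psmb10 (10.4 CPM per kb) to Psmb7 (182) was 0.0478 to 0.0627. For the caspase-like site that of Psmb9 to Psmb6 (170 CPM per kb) was 0.0101 to 0.0179. Thus the 3 inducible genes were not expressed alike: Psmb8 stood within a few-fold of its partner, whereas Psmb9 was low. Psmb9 rested on 47 to 103 counts per library, and its level per kilobase lay above that of 23.7% of all genes tested. The groups overlapped in all 3 ratios. The highest Psmb9 to Psmb6 ratio belonged to D-serine replicate 1, and the other 5 libraries lay between 0.0101 and 0.0121.

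None of the 6 catalytic genes passed the test between D-serine and control. In Psmb5, the level was 77.8, 82.6 and 83.7 CPM in control and 88.5, 72.6 and 73.8 CPM with D-serine (81.4 ± 3.12 against 78.3 ± 8.84, SD, n = 3 each). D-serine replicate 1 was the highest of the 6 libraries and its fellows the lowest, so the groups overlapped (log2 fold change -0.06, SE 0.070, edgeR quasi-likelihood adjusted p = 0.639). Psmb9 was 1.46, 1.37 and 1.69 CPM in control and 2.63, 1.55 and 1.44 CPM with D-serine. Only D-serine replicate 1 exceeded the control range, and the fitted difference of 0.31 had an SE of 0.27 (edgeR adjusted p = 0.481) and was -0.01 without that library. Psmb6 averaged 176 CPM in both groups (± 4.67 in control and ± 11.8 with D-serine), with a fitted difference of 0.000071. Psmb7, Psmb8 and Psmb10 had log2 differences of 0.12, -0.0084 and 0.02, with SEs of 0.050, 0.080 and 0.11 and edgeR adjusted p-values of 0.133, 0.963 and 0.928. Libraries of the groups overlapped in all of these.

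Across the members, D-serine was accompanied by small differences in few genes. In the edgeR quasi-likelihood test with Benjamini-Hochberg adjustment over all 13366 genes tested, 4 of the 48 members passed an adjusted p of 0.05 (8.33%), against 9.74% of all genes. Psma4, Psmc1 and Psmc3ip were higher with D-serine, where 4.84% of all genes were higher. Psme4 was lower, where 4.9% were lower. The share of members called was near that of all genes and is no result about the proteasome. The same held for members whose libraries did not overlap between groups, 14 of 48 (29.2%) against 32.9% of all genes, and for those with an unadjusted p under 0.05, 15 of 48 (31.2%) against 28.2%. Over all genes, 647 were higher and 655 lower, a division that became 914 and 412 with upper quartile scaling and 944 and 412 with library totals.

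**Figure D2:**
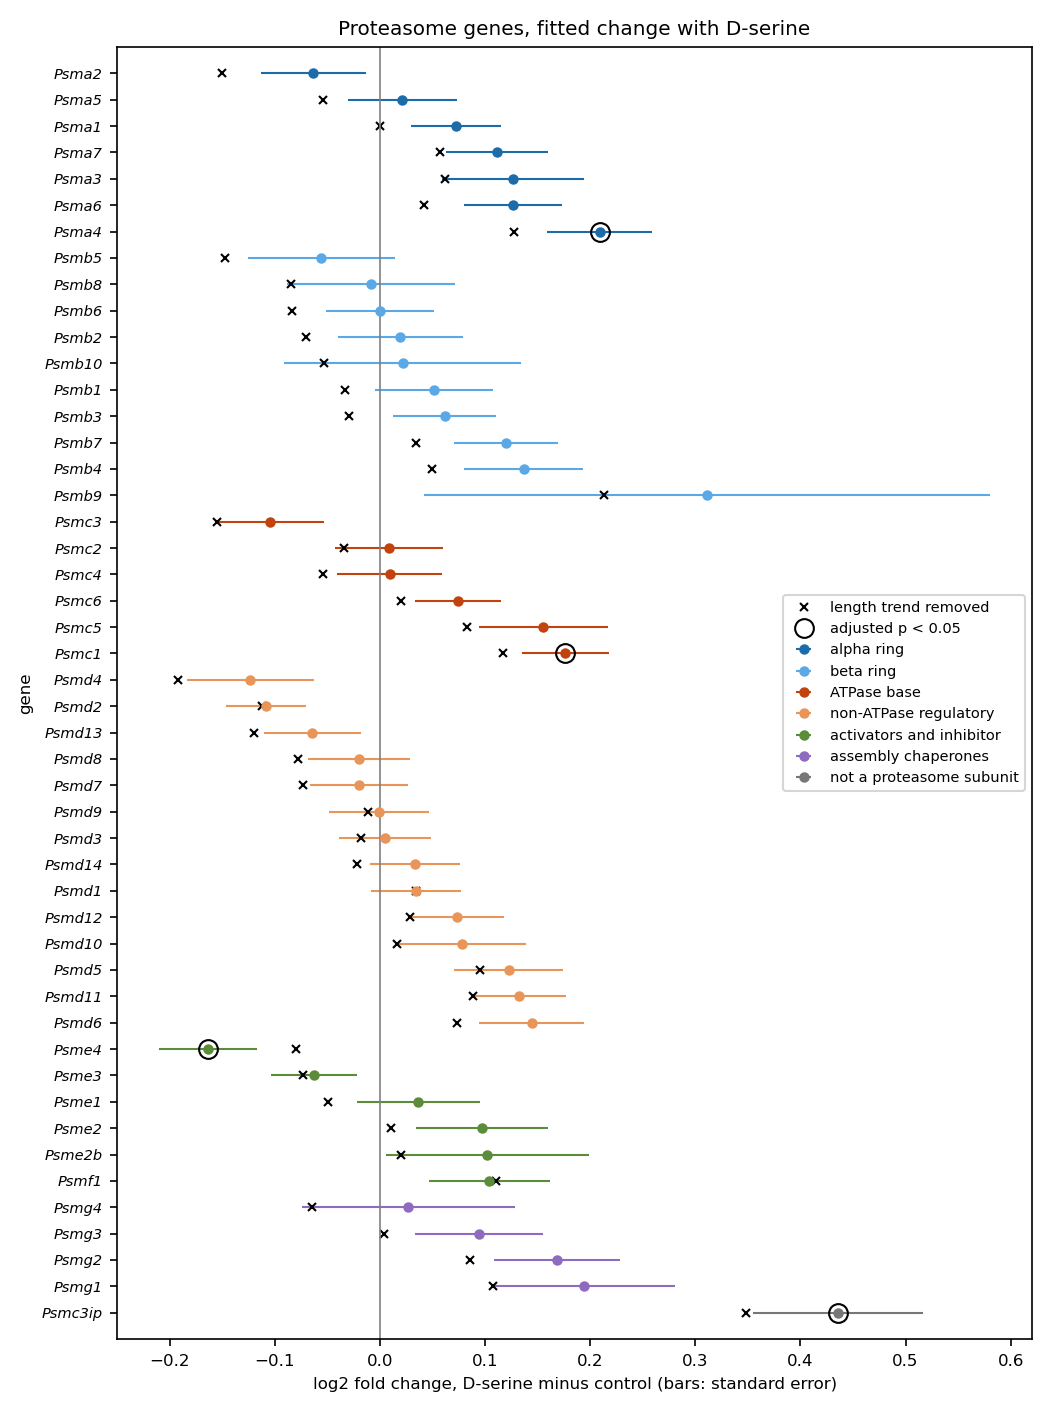
Log2 fold change (D-serine minus control) of the 48 tested members by sub-complex, with the standard error as bars, n = 3 libraries per group; rings mark genes with an edgeR adjusted p under 0.05 and crosses the value after removal of each library's length trend. Psma4, Psmc1 and Psmc3ip lie to the right and Psme4 to the left of 0, and most crosses lie left of their points.

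Psma4 encodes the alpha 3 subunit, whose N-terminal tail takes part in closing the gate of the core. Its level was 89.3, 87.2 and 90.5 CPM in control and 109, 101 and 98.4 CPM with D-serine. All D-serine libraries lay above all control libraries, with replicate 1 the highest. The means were 89.0 ± 1.70 and 103 ± 5.68 CPM (SD, n = 3 each), and Psma4 rose 1.16-fold (log2 0.21, SE 0.050, edgeR quasi-likelihood adjusted p = 0.0244). The rise was 0.13 with the length trend removed (edgeR adjusted p = 0.0338). The call was lost when any control library or D-serine replicate 3 was left out. In those fits the share of all genes called fell as well, from 9.74% to between 0.501% and 3.34%. With each library left out in turn, the rise of Psma4 was 0.16 to 0.24. Its call was also lost when the length trend was removed without D-serine replicate 1 (0.11, edgeR adjusted p = 0.0723). Psma4 was past the threshold under 10 of 17 alternatives, over which the adjusted p ran from 0.00796 to 0.114. Psma4 lies on chromosome 9 (54798666 to 54805837 on the plus strand, as deposited) and shares 45 exonic bases with AY074887 on the opposite strand.

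Psmc1 encodes Rpt2, an ATPase of the base whose C-terminal tail docks into the alpha ring and opens its gate. Control libraries had 133, 131 and 132 CPM and D-serine libraries 151, 146 and 151 CPM. The groups did not overlap, at 132 ± 0.581 and 149 ± 3.02 CPM (SD, n = 3 each). An SD from 3 libraries is itself uncertain. Psmc1 rose 1.13-fold (log2 0.18, SE 0.041, edgeR quasi-likelihood adjusted p = 0.0222), and by 0.17 without D-serine replicate 1 (edgeR adjusted p = 0.00733). As for Psma4, the omission of any control library or of D-serine replicate 3 ended the call, in fits where 0.501% to 3.34% of all genes passed. With each library left out in turn, the rise of Psmc1 was 0.17 to 0.19. It was smaller with the length trend removed, at 0.12 (edgeR adjusted p = 0.0268). The call held under 12 of 17 alternatives, with adjusted p-values from 0.00733 to 0.105 over all of them. The gene lies on chromosome 12 (101350541 to 101361574, plus strand, as deposited).

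Psme4 encodes PA200, a large activator that caps the core without using ATP and is known for a role with acetylated histones. Its level was 263, 255 and 258 CPM in control and 217, 242 and 234 CPM with D-serine. Every D-serine library was below every control library, and replicate 1 was the lowest. From 259 ± 4.39 to 231 ± 12.8 CPM (SD, n = 3 each), Psme4 fell by 0.16 on the log2 scale (SE 0.047, edgeR quasi-likelihood adjusted p = 0.0449). At 6442 bases it is the longest member, and with the length trend removed it was no longer called (-0.08, edgeR adjusted p = 0.0810). It was not called with upper quartile scaling or library totals either (edgeR adjusted p = 0.0724 and 0.0775). The call was also lost when any control library or D-serine replicate 3 was left out, where 0.501% to 3.34% of all genes passed. With each library left out in turn, its change lay between -0.20 and -0.12. Psme4 passed under 7 of 17 alternatives, with adjusted p-values from 0.0212 to 0.153. Psme4 lies on chromosome 11 (30671775 to 30780361, plus strand, as deposited).

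Psmc3ip had the largest difference of the 48 members. This recombination cofactor, known as Hop2, was at 17.8, 18.8 and 18.5 CPM in control and 27.8, 24.1 and 22.7 CPM with D-serine. The groups did not overlap, and D-serine replicate 1 was again the highest. Psmc3ip rose 1.35-fold, where the control mean of 18.4 ± 0.498 CPM compared with 24.9 ± 2.64 CPM in treated libraries (SD, n = 3 per group, log2 change 0.44, SE 0.081, edgeR quasi-likelihood adjusted p = 0.0112). The log2 change was 0.35 without D-serine replicate 1 and 0.30 with the length trend removed as well (edgeR adjusted p = 0.00540 and 0.0111). Psmc3ip lost its call without control replicate 1 or 2 (edgeR adjusted p = 0.0577 and 0.0540), where 0.921% and 0.501% of all genes passed. The call was kept under 15 of 17 alternatives. Psmc3ip shares 67 exonic bases with Mlx on the opposite strand. Since the strand setting of the counting is not given in the sources used here, reads from this stretch cannot be told apart.

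The core and regulatory particles were then compared with each other. Of the core genes 1 of 17 tested passed (5.88%) and of the regulatory genes 1 of 20 (5%), both below the 9.74% of all genes, and each share rests on a single gene. The median log2 fold change was 0.06 in the core and 0.02 in the regulatory particle, beside 0.0053 over all genes tested. The values lay above 0 in 14 of 17 core and 13 of 20 regulatory genes, beside 6890 of all 13366 genes tested. Without D-serine replicate 1 they did so in 8 core and 10 regulatory genes, and with the length trend removed in 7 and 9. Within the core, the median was 0.11 in the alpha ring (7 genes) and 0.04 in the beta ring (10 genes). Within the regulatory particle it was 0.04 in the ATPases (6 genes) and 0.02 in the other 14.

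The difference between the particles rested on D-serine replicate 1. The mean log2 CPM of core genes minus that of regulatory genes was -0.88, -0.86 and -0.83 in control and -0.74, -0.87 and -0.83 with D-serine. D-serine replicate 1 stood alone above the control libraries and its fellows lay within them. With each library's length trend removed, these differences were -0.86, -0.84 and -0.82 in control and -0.78, -0.87 and -0.84 with D-serine. D-serine replicate 1 was still the highest, and D-serine replicate 2 was then the lowest. Relative to the control mean, the median core gene was at -0.05, -0.0034 and 0.04 log2 units in the control libraries and at 0.18, -0.0092 and 0.05 in the D-serine libraries. For the median regulatory gene the values were -0.01, -0.0037 and 0.02, then 0.08, 0.0070 and 0.0014. In D-serine replicate 1, 43 of 48 members lay above their control mean, and so did 42 of 48 in control replicate 3. The other libraries had 11 and 20 (control replicates 1 and 2) and 26 and 27 (D-serine replicates 2 and 3). Without D-serine replicate 1 the medians were -0.01 in the core and 0.0060 in the regulatory particle, and their order was turned.

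**Figure D3:**
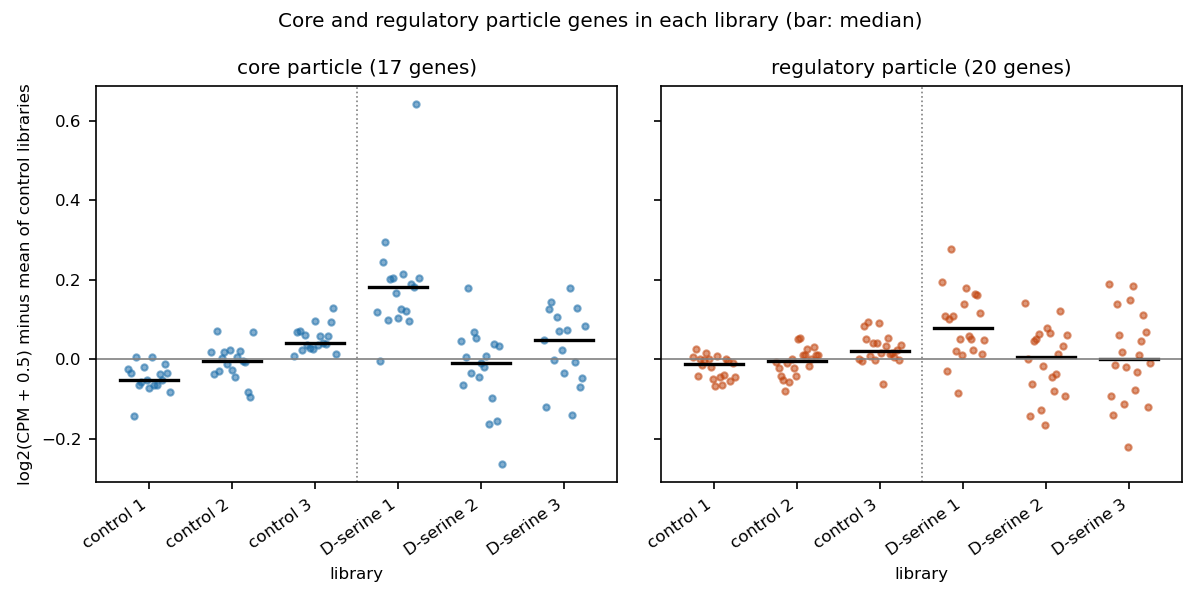
Each point is a gene, as log2(CPM + 0.5) minus its mean over the control libraries, with core genes (17) on the left and regulatory genes (20) on the right; bars are medians. The core median of D-serine replicate 1 is 0.18, and the other 5 lie between -0.05 and 0.05.

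Gene length moved with these values. Proteasome genes are short: 44 of the 48 members were shorter than the median gene tested, and median exonic lengths were 1036 bases (core), 1582 bases (regulatory particle) and 2834.5 bases (all genes tested). Across all genes tested, Spearman's rho between the log2 fold change and length was -0.29, and across the 48 members it was -0.31. Without D-serine replicate 1 it was -0.15 and -0.10. These are correlations across genes of the same libraries, which are not independent replicates. Among genes of up to 1000 bases, the median difference was 0.11 over all 1088 genes and 0.10 over the 14 members. For genes of over 1000 and up to 1500 bases it was 0.07 over all genes and 0.08 over 16 members, and for those of over 1500 and up to 2000 bases 0.04 over all genes and 0.02 over 10 members. Only 8 members were longer, with medians of 0.0019 (4 members of up to 3000 bases, against 0.02 over all genes), 0.03 (3 of up to 5000 bases, against -0.02) and -0.16 (Psme4, against -0.09). Without D-serine replicate 1, the 3 shortest classes gave 0.07, 0.03 and 0.02 over all genes and 0.03, 0.04 and -0.0098 over the members. How far length accounts for the members' values was not tested.

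**Figure D4:**
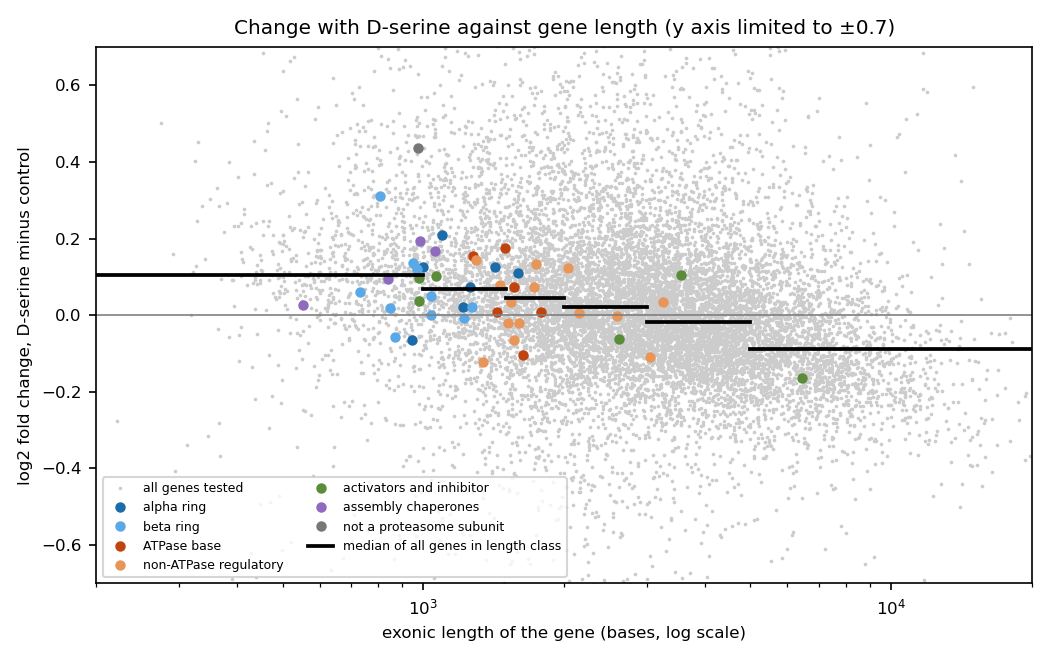
Log2 fold change (D-serine minus control) against exonic length on a log axis, with all genes tested in grey, proteasome genes in colour and the median of all genes in each length class as black bars. The bars descend from 0.11 in the shortest class to -0.09 in the longest, and the proteasome genes of up to 2000 bases scatter around them.

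With each library's length trend removed, the core median was -0.03 and the regulatory median -0.02, beside 0.0040 over all genes. Then 9 of 48 members passed (18.8%), against 15.3% of all genes (7.65% higher and 7.63% lower). Psma4, Psmc1 and Psmc3ip were still higher, and 6 members were lower: Psma2, Psmb5, Psmc3, Psmd2, Psmd4 and Psmd13. Without D-serine replicate 1 and with no length correction, 8 members passed (16.7%), against 12.5% of all genes (5.78% higher and 6.76% lower), and the 5 lower ones were Psmb5, Psmc3, Psmd2, Psmd4 and Psme4. The 4 genes Psmb5, Psmc3, Psmd2 and Psmd4 were lower under both, and also with the length trend removed and D-serine replicate 1 left out together, although none of them passed in the fit of all libraries. In that last setting 2 members were higher and 6 lower, 8 in all, against 13.8% of all genes (6.81% higher and 6.94% lower). The part of D-serine replicate 1 and of length in these calls was not tested further.

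Of these 4 genes, Psmd2 and Psmd4 encode parts of the regulatory particle that meet ubiquitin, and Psmd2 was picked out after its values were seen. Psmd2 (Rpn1, a scaffold of the base that also receives ubiquitin shuttles) was at 472, 472 and 471 CPM in control and 445, 432 and 436 CPM with D-serine. The control libraries were nearly equal and all D-serine libraries lay below them, at 438 ± 6.62 against 472 ± 0.303 CPM (SD, n = 3 each). So small an SD from 3 libraries is itself uncertain. The difference of -0.11 (SE 0.038) did not pass (edgeR quasi-likelihood adjusted p = 0.0838), and it was -0.11 with the length trend removed (edgeR adjusted p = 0.0122). Psmd4 (Rpn10, a ubiquitin receptor) was at 197, 198 and 217 CPM in control and 206, 182 and 175 CPM with D-serine. D-serine replicate 1 lay inside the control range and its fellows below it. The difference was -0.12 (SE 0.061, edgeR adjusted p = 0.199), and it was -0.20 without that library (edgeR adjusted p = 0.00512). Psmc3, the ATPase Rpt5, had 144, 144 and 158 CPM in control and 146, 135 and 135 CPM with D-serine, a difference of -0.10 (SE 0.051, edgeR adjusted p = 0.196). Here too D-serine replicate 1 was the only treated library inside the control range. Psmb5, given above with the catalytic genes, was at -0.15 without D-serine replicate 1 (edgeR adjusted p = 0.0416).

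The other members at the extremes of their sub-complexes did not pass the test. In the alpha ring, Psma2 had the lowest value, with 104, 104 and 112 CPM in control and 106, 102 and 97.9 CPM with D-serine (log2 -0.06, SE 0.050, edgeR adjusted p = 0.431). Its groups overlapped. Psmd6 (Rpn7 of the lid) had the highest value among the non-ATPase genes, at 110, 114 and 105 CPM in control and 124, 114 and 124 CPM with D-serine. These groups touched near 114 CPM without overlapping, and the difference of 0.14 (SE 0.050) had an edgeR adjusted p of 0.0819, and was 0.07 with the length trend removed. Psmd11 (Rpn6 of the lid), picked out after its values were seen, had 83.8, 84.0 and 84.3 CPM in control and 94.2, 91.5 and 90.8 CPM with D-serine, also without overlap (0.13, SE 0.044, edgeR adjusted p = 0.0737). Psmd6 and Psmd11 passed with upper quartile scaling and with library totals, where 5 members were higher and 0 lower. Upper quartile scaling called 9.92% of all genes (6.84% higher and 3.08% lower) and library totals 10.1% (7.06% higher and 3.08% lower).

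Among the activators and inhibitor the highest value was that of Psmf1, which encodes the inhibitor PI31 and was at 46.2, 51.4 and 50.5 CPM in control and 54.9, 53.6 and 50.8 CPM with D-serine (0.10, SE 0.058, edgeR adjusted p = 0.258). The groups overlapped. Psme1 and Psme2, the interferon-inducible PA28 pair, and Psme3, the nuclear PA28 gamma, had differences of 0.04, 0.10 and -0.06 with edgeR adjusted p-values of 0.726, 0.337 and 0.339. None of the 4 chaperones of core assembly passed in edgeR, and their median was 0.13, or 0.08 without D-serine replicate 1 and 0.04 with the length trend removed. Psmg1 was at 29.6, 31.4 and 37.0 CPM in control and 41.3, 36.7 and 34.2 CPM with D-serine, and the groups overlapped (0.19, SE 0.087, edgeR adjusted p = 0.165, and 0.12 without D-serine replicate 1). Psmg4 was at 13.2, 13.7 and 13.1 CPM against 15.9, 12.3 and 12.6 CPM (0.03, SE 0.10, edgeR adjusted p = 0.896), with D-serine replicate 1 above and its fellows below the control libraries, and a value of -0.10 without it. Psma6, the most strongly expressed member, was at 300, 316 and 320 CPM in control and 359, 327 and 336 CPM with D-serine. Its groups did not overlap, and the difference of 0.13 had an edgeR adjusted p of 0.0972, and was 0.04 with the length trend removed. The other 25 tested members had log2 values between -0.06 (Psmd13) and 0.17 (Psmg2), and none passed.

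Genes that work beside the proteasome were examined in 7 lists of 78 symbols, of which 77 were matched and 75 tested. Of these, 7 passed (4 higher and 3 lower, 9.33%), against 9.74% of all genes (4.84% higher and 4.9% lower), so the count is near the background and is no result about the lists. Among the 12 tested factors of proteasome maturation and association, 1 rose and 1 fell, where 9.74% of all genes passed. Pomp, the chaperone that matures the core, was at 79.1, 77.6 and 79.8 CPM in control and 95.0, 88.0 and 92.2 CPM with D-serine. Without overlap between the groups, it rose 1.16-fold (log2 0.22, SE 0.047, edgeR quasi-likelihood adjusted p = 0.0166). Pomp is a short gene of 734 bases, and its log2 change was 0.13 with the length trend removed (edgeR adjusted p = 0.0358). Adrm1, which encodes the ubiquitin receptor Rpn13 of the regulatory particle, went the other way, with 178, 182 and 193 CPM in control and 166, 156 and 161 CPM with D-serine. Its groups did not overlap either, and it fell by 0.20 on the log2 scale (SE 0.046, edgeR adjusted p = 0.0217).

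Of the 11 ubiquitin genes and shuttle receptors reported here, 0 rose and 2 fell, where 4.84% of all genes were higher and 4.9% lower. Uba1, the main ubiquitin-activating enzyme, was at 630, 645 and 661 CPM in control and 561, 578 and 554 CPM with D-serine. The groups did not overlap, and Uba1 fell by 0.19 on the log2 scale (SE 0.039, edgeR adjusted p = 0.0142). Ubqln4, a shuttle receptor, had 105, 104 and 108 CPM against 96.9, 93.6 and 93.4 CPM, also without overlap. It fell by 0.16 (SE 0.044, edgeR adjusted p = 0.0395), a call that was lost with upper quartile scaling and library totals. Ubb, a polyubiquitin gene, did not pass (-0.13, edgeR adjusted p = 0.0770).

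In the list on transcription of proteasome genes, 1 of 13 passed (7.69%), against 9.74% of all genes. Nfya, a DNA-binding subunit of NF-Y, rose by 0.15 on the log2 scale, where the control mean of 141 ± 3.20 CPM compared with 157 ± 5.43 CPM in treated libraries (SD, n = 3 per group, SE 0.044, edgeR adjusted p = 0.0449), while its partners Nfyb and Nfyc had values of 0.03 and -0.10 (edgeR adjusted p = 0.679 and 0.430). Nfe2l1 itself was at 362, 381 and 380 CPM in control and 359, 374 and 369 CPM with D-serine. The groups overlapped, at a difference of -0.03 (SE 0.041, edgeR adjusted p = 0.690). Of the p97 unfoldase and 11 of its cofactors, 1 of 12 passed (8.33%), against 9.74% of all genes. Faf1 rose 1.17-fold (log2 change 0.23, SE 0.053, edgeR adjusted p = 0.0217). Its mean was 48.3 ± 0.923 CPM in control and 56.5 ± 2.54 CPM in treated libraries (SD, n = 3 per group). Vcp, the gene of p97, had a value of 0.07 (edgeR adjusted p = 0.340).

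The COP9 signalosome resembles the lid of the regulatory particle, and 1 of its 10 genes passed (10%), against 9.74% of all genes. Myeov2, an older symbol of Cops9, rose 1.24-fold, where the control mean of 17.2 ± 0.823 CPM compared with 21.5 ± 1.76 CPM in treated libraries (SD, n = 3 per group, log2 change 0.32, SE 0.079, edgeR adjusted p = 0.0275). None of the 8 genes of the CCT chaperonin passed in edgeR, where Cct2 had the smallest p (-0.11, edgeR adjusted p = 0.110). Without D-serine replicate 1, 3 of the 8 were lower in edgeR, namely Cct2, Cct5 and Cct7, at -0.14, -0.15 and -0.12, where 6.76% of all genes were lower. In the list on antigen processing and interferon, 10 genes were tested and none passed in edgeR, with Erap1 nearest (-0.13, edgeR adjusted p = 0.208). The median log2 fold changes of the 7 lists lay between -0.04 and 0.04, beside 0.0053 over all genes. With the length trend removed, 15 list genes passed (20%, 5 higher and 10 lower), against 15.3% of all genes. None of the list genes passed in edgeR when any control library or D-serine replicate 3 was left out, where 0.501% to 3.34% of all genes passed. Without D-serine replicate 2, 7 passed again, but Nfya and Ubqln4 were not among them.

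**Figure D5:**
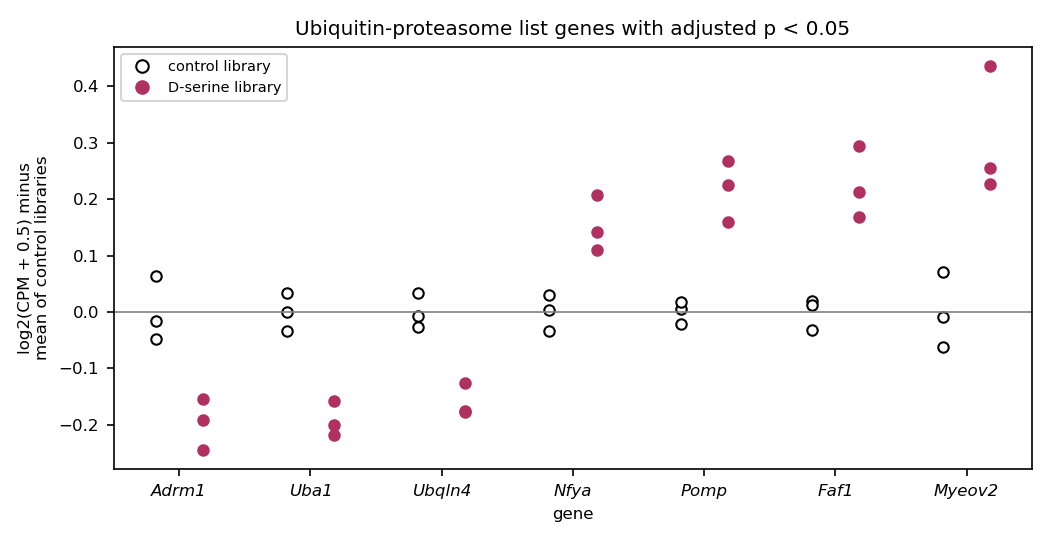
The 7 list genes with an edgeR adjusted p under 0.05, each library as log2(CPM + 0.5) minus the mean of the control libraries (open, control; filled, D-serine; n = 3 each). Adrm1, Uba1 and Ubqln4 lie below and Nfya, Pomp, Faf1 and Myeov2 above their control libraries, with no overlap in any of the 7.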

How the data were processed

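Poly(A) RNA was sequenced in 3 control and 3 D-serine libraries. The authors deposited raw counts per gene with the exonic length of each gene. The submitters' processing notes name Trim Galore, HISAT2, featureCounts (Subread), DESeq2 and GRCm38/mm10, without settings; the TruSeq Stranded kit is per the labels, and the strand setting of the counting is not given in the sources used here. Only 1 of 50 member starts lay within 1000 bases of its GENCODE position on GRCm38, as did 1099 of the 23322 genes found in GENCODE. The deposited positions thus differ from the named build for most genes, and which build they use is unsettled. Gene coordinates are given as deposited, and promoters are from RefSeq on GRCm38.p6.

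The counts were tested with edgeR 4.0.16 in R 4.3.3 (filterByExpr, TMM scaling, quasi-likelihood F test, two-sided, no covariate, Benjamini-Hochberg over 13366 genes, threshold 0.05). The standard error is the size of the log2 fold change over the square root of F. CPM uses TMM-adjusted library sizes, and log2 levels per library use log2(CPM + 0.5). Exonic overlaps were counted on either strand. The pipeline was tested on simulated counts with known changes. Its checks did not cover the main fit on counts simulated with a length trend between the groups. Such a trend makes false calls in a fit that ignores it.

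Members and lists were chosen with earlier results of these data known, so they are described by counts and medians with no test of a list. Some genes of the lists are not reported here. Values in every library are given for members past the threshold, the catalytic genes, the extremes of each sub-complex and of level; of the lists, members past the threshold (at most 4) or the smallest p are named. Others are Th, Dbh, Mbp and genes named for their role or said to be picked out after their values were seen.

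Alternatives were DESeq2 size factors, upper quartile scaling, library totals, no filter, a mean of at least 50 counts, the DESeq2 1.42.0 Wald test, limma-voom (limma 3.58.1), a block for the replicate number, subtraction of a smooth length trend per library (natural spline, 5 degrees of freedom), both together, and each library left out in turn. Removal of the trend without D-serine replicate 1 was added after seeing the data.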

Additional observations from a re-analysis of the deposited data

How the results depend on the processing

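Same-numbered libraries showed no shared deviation (correlations of -0.06, 0.03 and -0.02), and differently numbered ones gave -0.07 to 0.08. With 3 libraries per group these values cannot settle whether equal numbers pair the samples, and the labels do not say so. With replicate number as a block, 1 member passed (Psmc3ip, 1 higher and 0 lower; 0 core and 0 regulatory genes), with 0 list genes and 298 of all genes (178 higher, 120 lower). With each library's length trend removed, 9 members passed (6 lower; 3 core, 5 regulatory), 15 list genes and 2043 of all genes (1023 higher, 1020 lower), and the medians were -0.030 in the core, -0.015 in the regulatory particle and -0.015 for their difference. With the block as well, 7 members passed (14.6%, with 5 lower and 5 regulatory) and 13 list genes. Of all genes, 1900 passed (14.2%, 945 higher and 955 lower). The medians and their difference were then -0.030, -0.015 and -0.015. Length removal without D-serine replicate 1, chosen after seeing the data, gave 8 members (16.7%, with 6 lower, 2 core and 5 regulatory) and 15 list genes. Of all genes, 1864 passed there (13.8%, 923 higher and 941 lower). The core median was -0.061 and the difference -0.051. Upper quartile scaling and library totals gave 5 members higher and 0 lower, with 3 regulatory genes. Over all genes, 914 and 944 were higher and 412 lower in both. Without the filter 880 of all genes were higher and 987 lower. Counting Psmc3ip as regulatory gave 2 of 21 regulatory genes (9.52%), against 9.74% of all genes.

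Leaving out each library gave 0 to 9 members (0 to 8 higher, 0 to 5 lower), 0 to 2 core and 0 to 4 regulatory genes, 0 to 12 list genes and 68 to 1699 of all genes (47 to 783 higher, 21 to 916 lower). No member passed without control replicate 1 or 2, and 1 passed without control replicate 3 or D-serine replicate 3. Without D-serine replicate 1, 8 passed, and without D-serine replicate 2, 9. The share of all genes called moved as well. It was 0.921%, 0.501% and 3.34% without control replicates 1, 2 and 3, and 12.5%, 11.6% and 2.15% without D-serine replicates 1, 2 and 3. The core median ran from -0.010 to 0.10, the regulatory median from 0.0060 to 0.048 and their difference from -0.016 (without D-serine replicate 1) to 0.081. The cause of these shifts was not tested. No gene past the threshold in the main fit of all libraries changed direction under any alternative run. Psme2 passed only without D-serine replicate 2 (0.17). It was at -0.0040 with the length trend removed and D-serine replicate 1 left out. With 3 libraries per group, differences of the size seen here lie close to what the spread between libraries allows, and Psmb9 and Psmb11 are limited by their low counts.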
